A study of Mus musculus with 4 samples.

Results

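The Ikaros family of zinc finger transcription factors was followed in host bone marrow progenitors of mice that carried a B-cell acute lymphoblastic leukemia (B-ALL) or had received saline. The members are the rows Ikzf1, Ikzf2, Ikzf4 and Ikzf5, 4 of the 13978 genes in the deposited matrix, and Ikzf3 was not analysed here. They were chosen by gene name with their levels in these cells known, so their values are a description without tests. All recipients were wild-type CD45.1 mice. In the B-ALL group, 150000 primary tumor cells went into the tail vein, taken from the lymph node of 1 leukemic Cd45.2+/+ Ebf1+/-Pax5+/- mouse (LN768), and the control group received PBS. In both groups KIT+Lin-CD45.2-CD45.1+ bone marrow cells were sorted 3 weeks later, so by this gate the cells measured are host cells and not the injected ones. The labels write LN768 as the source of all 4 samples, controls included, and no age of the hosts was used here.

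Ikaros family proteins bind DNA through C2H2 zinc fingers in their N-terminal part and pair with each other through fingers at their C-terminal end. They recruit NuRD and other chromatin complexes and can hold genes down or keep them open. Ikzf1 encodes Ikaros, which lymphoid cells need in order to develop, and its loss is common in human B-ALL. Ikzf2 encodes Helios and Ikzf4 encodes Eos, both best known from regulatory T cells, and Ikzf5 encodes Pegasus, a more distant relative.

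On the GRCm38 assembly, Ikzf1 lies at chr11:11685003-11772926 on the plus strand. Ikzf2 lies at chr1:69531214-69687245, Ikzf4 at chr10:128630843-128645991 and Ikzf5 at chr7:131388652-131410521, all on the minus strand. The coding sequence of the second C2H2 finger of each member is printed because this finger contacts DNA and its bases can be compared between members. It was read from the GENCODE M21 transcripts, runs 5′ to 3′ on the coding strand, and has the codons of the paired cysteines and histidines in capitals.
Ikzf1: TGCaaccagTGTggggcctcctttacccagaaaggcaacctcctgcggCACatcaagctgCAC
Ikzf2: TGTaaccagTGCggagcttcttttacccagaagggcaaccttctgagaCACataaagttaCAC
Ikzf4: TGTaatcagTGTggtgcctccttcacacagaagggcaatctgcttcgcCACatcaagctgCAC
Ikzf5: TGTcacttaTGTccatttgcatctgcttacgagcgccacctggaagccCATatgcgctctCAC
Each finger lies in 1 exon: exon 6 of the Ikzf1 transcript at chr11:11754024-11754086, exon 5 of Ikzf2 at chr1:69570581-69570643, exon 5 of Ikzf4 at chr10:128640229-128640291 and exon 4 of Ikzf5 at chr7:131392501-131392563. Over its 63 bases, the Ikzf4 finger shared 53 bases (84.1%) with Ikzf1 and 48 bases (76.2%) with Ikzf2. Ikzf1 and Ikzf2 shared 51 bases (81.0%). The Ikzf5 finger shared 26 (41.3%) to 30 (47.6%) of its bases with the other members, so by this finger Ikzf1, Ikzf2 and Ikzf4 were closest. The finger matches of Ikzf5 start at codons 84, 112, 140, 366 and 394. Those of Ikzf1 start at codons 139, 167, 195, 223, 480 and 508. The second finger of Ikzf5 therefore need not be the counterpart of the others, and other pairings were not compared.

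The matrix holds 11764 cells, 5882 in each group, with 68391214 control and 76059014 B-ALL UMIs (unique molecular identifiers, each standing for 1 captured RNA molecule). Median depth was 10189 and 10458 UMIs per cell, and 190 B-ALL cells had fewer UMIs than any control cell. Mitochondrially encoded genes took 3.56% and 5.14% of UMIs, and 18 barcodes occurred in both groups. The cells do not name their sample, so each group is 1 sample, there is no replicate check, and all intervals cover counting error only. Cells were put into classes named by their marker genes. The hematopoietic stem cell-like (HSC-like) class held 330 control and 1125 B-ALL cells in 3 clusters, in which 13, 15 and 14 of 15 stem cell markers were found in at least 10% of cells. Kit, the receptor used in the sort, had a UMI in 92.9% of control and 79.1% of B-ALL cells, and its part in the results was not tested.

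Ikzf4 was nearly absent from control progenitors and present across the stem and megakaryocyte side of the B-ALL progenitors. Over all cells it had 15 control and 792 B-ALL UMIs, or 0.222 and 10.3 CPM (UMIs per 1000000, scaled by the TMM method). The B-ALL level was 46.3-fold higher, with a 95% interval of 27.9 to 83.2. On the log2 scale the fold was 5.53 (4.80 to 6.38). Of the 8781 genes whose mean level reached 10 CPM, 1 had a larger fold, and the median log2 fold of these genes was -0.02. Ikzf4 itself missed that mean. Among the genes that reached it, 3.94% were past 1.5-fold higher and 2.79% past 1.5-fold lower, and none of Ikzf1, Ikzf2 and Ikzf5, the members that reached the mean, was past either. Among the 13956 genes with a UMI in both groups and no filter, 12.5% were past 1.5-fold higher and 8.08% lower, and Ikzf4 was among the former. The number of B-ALL cells with an Ikzf4 UMI was 623, against 15 control cells. No control cell had more than 1 UMI, whereas 136 B-ALL cells had at least 2 and the highest had 5. The B-ALL group held more HSC-like cells (19.1% against 5.61%), and with the classes at equal cell numbers the log2 fold over all cells was 4.54. The map of Ikzf4-positive cells shows the B-ALL cells gathered over the HSC-like region and the region to its right, with a thin scatter elsewhere.

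**Figure D1:**
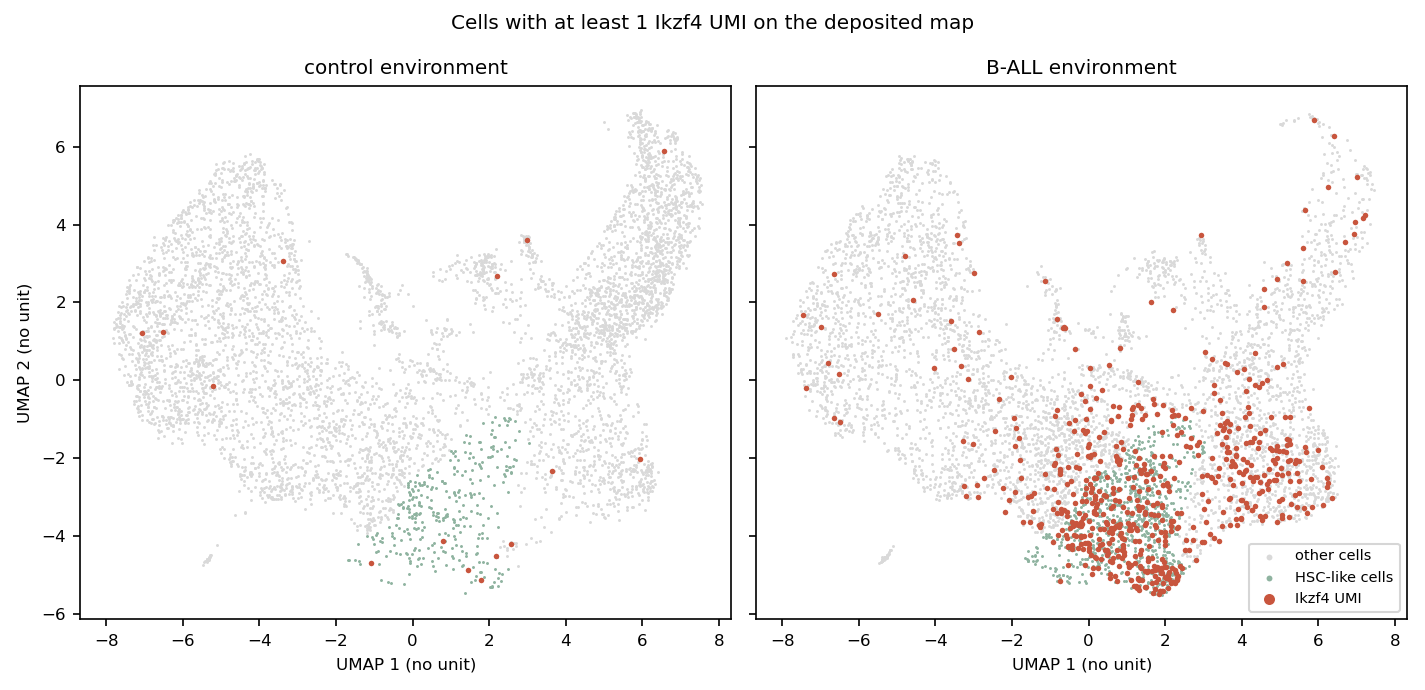
Deposited UMAP coordinates (no unit) of the control cells (left) and B-ALL cells (right), with HSC-like cells in green, other cells in grey and cells with at least 1 Ikzf4 UMI in red. The red cells number 15 on the left and 623 on the right, and 292 of the latter are HSC-like.

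HSC-like cells had the highest Ikzf4 level of the 10 named classes in the B-ALL group, and the highest in the control, where no neighbours in the order of levels stood apart by counting error. They held 5 control and 389 B-ALL UMIs, at 1.91 and 40.9 CPM, a log2 fold of 4.42 (3.19 to 6.05). Here Ikzf4 passed the mean of 10 CPM only through the B-ALL group, so its place among the genes is a description. Of 9303 genes, 6 had a larger fold. It was the 1 of 4 members past 1.5-fold higher, in a class where 7.11% of genes were. No member was past 1.5-fold lower, where 4.51% of genes were, and without the filter 12.5% of genes were higher. Since the members were chosen with this contrast known, nothing is read from that count. The control levels of the clusters of this class rest on few UMIs. Cluster 2 had 0 control and 105 B-ALL UMIs, at least 11.1-fold higher when the control sum is set to a floor of 3 UMIs. Such values against the floor leave out the counting error of the B-ALL sum and are not limits of an interval. Cluster 4 had 2 and 189, a ratio of 28.9 (7.90 to 241). Cluster 3 had 3 and 95, a ratio of 3.99 (1.32 to 19.7). Its 37 control cells stood at 14.6 CPM, which is the floor of 3 UMIs. The Poisson interval of that level, 3.01 to 42.7 CPM, overlaps that of cluster 4, 0.172 to 5.14 CPM. Cluster 3 also had the highest B-ALL level, 58.3 CPM, beside 41.1 CPM in cluster 4 and 32.6 CPM in cluster 2.

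The megakaryocyte-like class came next in the B-ALL group. Ikzf4 had 3 control and 156 B-ALL UMIs there, a ratio of 15.4 (5.16 to 75.4), and the B-ALL level was 13.8 CPM. The HSC-like B-ALL level was 2.96-fold above it (2.45 to 3.58). Different clusters held most of this class in the groups: cluster 7 held 165 control and 397 B-ALL cells, and cluster 17 held 193 and 302. The B-ALL level was 20.6 CPM in cluster 7 and 6.95 CPM in cluster 17, so the megakaryocyte-like cells were not uniform. The multipotent progenitor-like (MPP-like) class had 0 and 50 UMIs (at least 12.5-fold higher, 10.2 CPM). The early megakaryocyte-erythroid class had 0 and 69 UMIs (at least 21.5-fold higher, 10.2 CPM). In the order of B-ALL levels from the megakaryocyte-like over the MPP-like to the early megakaryocyte-erythroid class, no neighbours stood apart by more than counting error. With finer clusters the MPP-like bound was lower, 2.69 on the log2 scale against 3.64, and the early megakaryocyte-erythroid bound was 3.83 against 4.43. Within the early megakaryocyte-erythroid class, cluster 11 (346 and 439 cells) reached 13.6 CPM with 62 UMIs, and cluster 5 (591 and 247 cells) reached 3.16 CPM with 7 UMIs.

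Ikzf4 was low in the other classes of both groups. The erythroid-like class had 1 and 13 UMIs, a ratio of 45.3 with an interval of 6.81 to 1927, and its B-ALL level of 3.59 CPM lay below the early megakaryocyte-erythroid level beyond counting error. The lymphoid-primed class had 0 and 12 UMIs (at least 4.06-fold higher), and the early granulocyte-monocyte class 0 and 10 (at least 3.28-fold higher). These bounds depended on the class borders. On the log2 scale they were 2.02 and 1.72, and with finer clusters 1.16 and 1.03. With classes called per cell from marker UMIs the early granulocyte-monocyte bound was -0.54, which gives no direction. The monocyte progenitor-like class had 1 and 6 UMIs, with a ratio of 7.10 whose interval, 0.862 to 327, includes no difference. The basophil and mast cell-like class (2 and 3 UMIs) and the neutrophil progenitor-like class (1 and 3) were at the floor in both groups and give no fold. From the erythroid-like class down to the neutrophil progenitor-like class, at 0.451 CPM, no neighbours in the order of B-ALL levels stood apart. Of the 4 unnamed clusters, cluster 12 had 0 and 41 UMIs (at least 7.67-fold higher) and cluster 8 had 0 and 29 (at least 6.37-fold higher). Cluster 9 had 0 and 6, a value 1.42-fold over the floor. Its Poisson intervals, 0 to 5.54 CPM in the control and 2.34 to 13.9 CPM with B-ALL, overlapped, so it gives no direction. Cluster 1 had 2 and 5, with an interval of the ratio from 0.451 to 28.9.

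**Figure D2:**
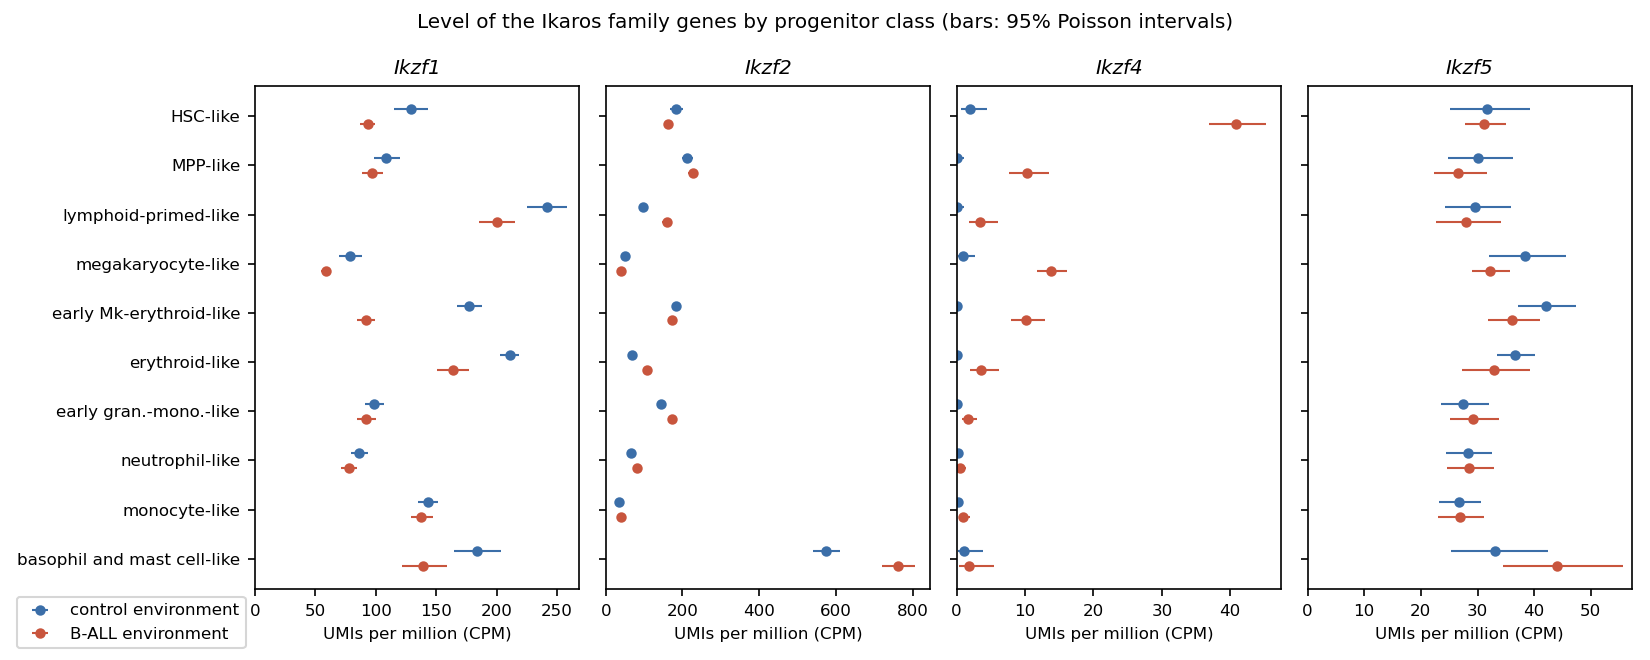
Level of each member (CPM, horizontal axes starting at 0 and differing between panels) in the 10 named classes, control in blue and B-ALL in red, with 95% Poisson intervals. Ikzf4 separates at the top of its panel (1.91 against 40.9 CPM in HSC-like cells), Ikzf2 stands out in basophil and mast cell-like cells, and Ikzf5 is level throughout.

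To compare shares of positive cells at equal depth, each cell was thinned to 3000 UMIs and shallower cells were left out (41 HSC-like B-ALL cells and no control cell of that class). An Ikzf4 UMI then remained in 1 of 330 control HSC-like cells (0.303%, exact Clopper-Pearson interval 0.00767 to 1.68) and in 116 of 1084 B-ALL HSC-like cells (10.7%, 8.92 to 12.7). Without thinning the shares were 1.52% and 26.0%, at median depths of 7310 and 7365 UMIs. The thinned B-ALL share was 4.30% in megakaryocyte-like, 3.83% in MPP-like and 2.69% in early megakaryocyte-erythroid cells. It was 0.676% in neutrophil progenitor-like and 0.621% in monocyte progenitor-like cells, whose unthinned median depths were 21561 and 18396 UMIs. The HSC-like share lies above the intervals of these last thinned shares, which reach 2.42% and 2.23%. Without thinning, the neutrophil and monocyte progenitor-like shares were 1.01% and 1.55%. How much free RNA adds to the shares was not tested. None of the 32 B-ALL cells of the T and NK cell-like class had an Ikzf4 UMI, at a median depth of 4043 UMIs, which allows a share of up to 9.38% by the floor of 3 counts and of up to 10.9% by the exact interval.

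**Figure D3:**
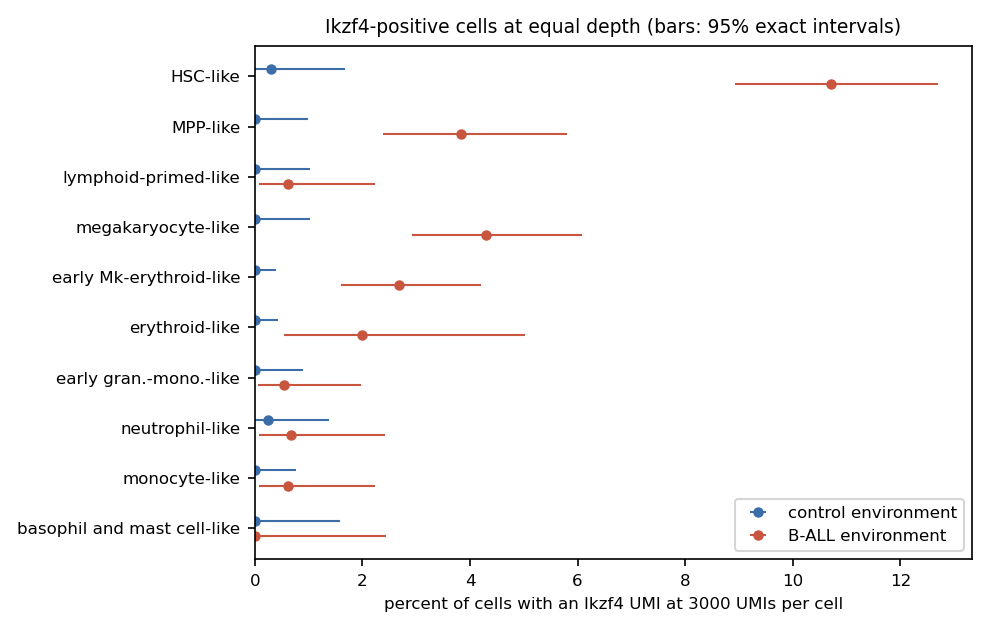
Share of cells with an Ikzf4 UMI (percent, horizontal axis) after thinning every cell to 3000 UMIs, by class, control in blue and B-ALL in red, with 95% exact binomial intervals. The HSC-like B-ALL share of 10.7% lies above all other classes, and each control share is at or below 0.303%.

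Ikzf4 is known from T cells, so markers of other blood cells were read in the same cells. Of 12 T and NK cell markers, 4 were in the matrix, and their summed level in HSC-like cells was 253 CPM in the control and 87.9 CPM in the B-ALL group. Over all cells it was 327 and 254 CPM, from 22115 and 19545 UMIs. The T and NK cell-like class held 21 control and 32 B-ALL cells. In control HSC-like cells all 663 UMIs of the sum came from listed genes other than Trbc2, so the sum is not by itself a measure of T cells. It was not split further by gene, and the part of T cells in it was not tested. Of 11 B cell markers, 3 were in the matrix, with 46.9 and 46.4 CPM in HSC-like cells and 43.1 and 50.9 CPM over all cells. Control HSC-like cells had no UMI of Trbc2 or Igll1, and in B-ALL HSC-like cells no gene of these lists was at 0. A UMI of Trbc2 or Vpreb1, the defining T and B cell genes in the matrix, was found in 6 of 292 Ikzf4-positive B-ALL HSC-like cells (2.05%) and in 28 of 833 Ikzf4-negative ones (3.36%). These cells were not thinned, their median depths differed (9307 and 6837 UMIs), and the shares have no interval. Without all cells that held such a UMI, the Ikzf4 log2 fold in HSC-like cells was 4.41.

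Over all cells, the protein-coding genes around Ikzf4 on chromosome 10 had like levels in both groups. Of the genes within 100000 bases, 10 were in the matrix. Pa2g4, which encodes a growth-related RNA-binding protein, had 615 CPM over all cells in both groups. Rab5b, an endosomal GTPase, had 33.0 and 35.7 CPM, and Cdk2, a cell cycle kinase, had 52.6 and 54.9 CPM. The log2 folds over all cells of the protein-coding neighbours ran from -0.38, for Pmel at 56 and 49 UMIs, to 0.28, for Zc3h10. In HSC-like cells they ran from -0.35, for Cdk2 (64.4 and 50.7 CPM), to 0.46, for Rab5b (30.5 and 41.8 CPM). Of the neighbours with UMIs in both groups, 1 was past 1.5-fold over all cells, the antisense gene Gm29585. It had 32 control and 17 B-ALL UMIs and a log2 fold of -1.10. Gm26876, a lincRNA that overlaps Ikzf4 on the opposite strand, had 0 control and 40 B-ALL UMIs, 18 of them in HSC-like cells. How reads on the opposite strand were counted is not given in the sources used here, so reads of Gm26876 and Ikzf4 cannot be told apart with certainty.

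Ikzf1 was lower in the B-ALL group, most in early megakaryocyte-erythroid cells. Over all cells it had 9942 control and 7715 B-ALL UMIs, at 147 and 100 CPM, a log2 fold of -0.55 (-0.60 to -0.51). With the classes at equal cell numbers the log2 fold was -0.38. Of the 8781 genes past the mean level, 8508 had a higher log2 fold. In early megakaryocyte-erythroid cells Ikzf1 stood at 177 and 91.9 CPM, a log2 fold of -0.95 (-1.09 to -0.80). This was the 1 named class of 10 in which Ikzf1 was past 1.5-fold lower, and 7.46% of genes in that class were. The difference was present within both of its clusters, at -0.62 in cluster 5 and -0.92 in cluster 11, both smaller in size than the class value. Cluster 5, with the higher control level (206 CPM against 135 CPM), held 591 control and 247 B-ALL cells. Cluster 11 held 346 and 439. The part of this shift in the class value was not tested. In HSC-like cells Ikzf1 had 338 and 887 UMIs, at 129 and 93.3 CPM, a log2 fold of -0.47 (-0.65 to -0.28). There it was lower in cluster 2 (-0.41) and cluster 4 (-0.54), while cluster 3, with 14 control UMIs, gave 0.40 with an interval of -0.39 to 1.31.

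The interval of the Ikzf1 fold lay below 0 in 6 of the 10 named classes and above 0 in none. Besides those given, these were the megakaryocyte-like (-0.42), basophil and mast cell-like (-0.40), erythroid-like (-0.36) and lymphoid-primed (-0.27) classes, the last of which had -0.09 with finer clusters. It included 0 in the MPP-like (-0.16), neutrophil (-0.15), early granulocyte-monocyte (-0.10) and monocyte (-0.05) progenitor-like classes, so the named granulocyte and monocyte classes differed least. Of the unnamed clusters, cluster 9 (-0.70), cluster 12 (-0.53) and cluster 1 (-0.19) had intervals below 0, and that of cluster 8 (-0.26) included 0. Cluster 9 was past 1.5-fold lower, and 20.2% of genes past the mean level there had a still lower fold. Lymphoid-primed cells had the highest level in both groups (241 CPM in the control and 200 CPM with B-ALL), followed by erythroid-like cells (211 and 164 CPM). When all class sums were scaled together, erythroid-like cells came first in the control (231 CPM) ahead of lymphoid-primed cells (229 CPM). Basophil and mast cell-like cells (183 CPM) and early megakaryocyte-erythroid cells (177 CPM) followed among the named classes in the control and did not stand apart. In the B-ALL group the early megakaryocyte-erythroid class was in the eighth place of 10, and no neighbours from the fifth to the eighth place stood apart. Megakaryocyte-like cells had the lowest level, 78.9 CPM in the control and 58.8 CPM in the B-ALL group. After thinning each cell to 3000 UMIs, an Ikzf1 UMI remained in 30.9% of control and 22.1% of B-ALL HSC-like cells.

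**Figure D4:**
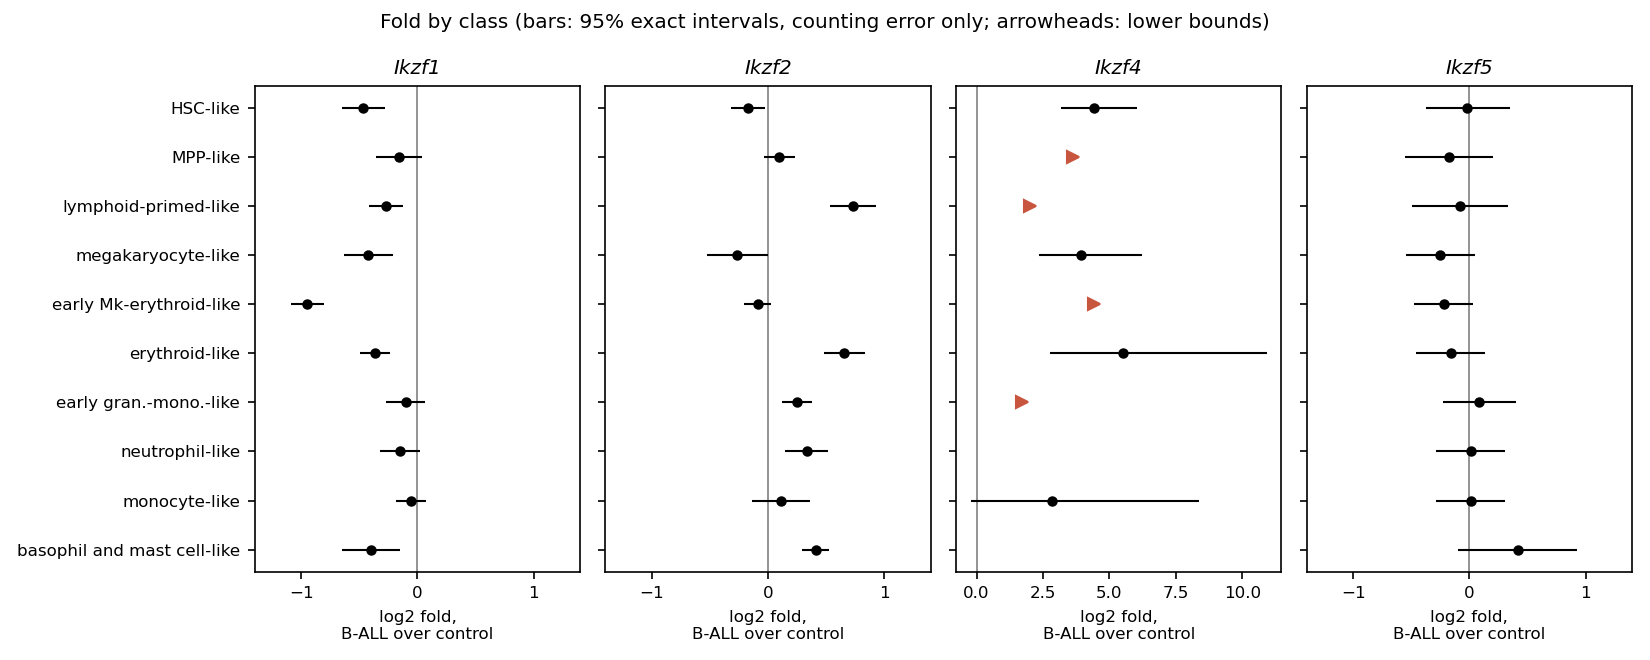
Log2 fold of the B-ALL over the control level (horizontal axes, differing between panels) of each member in the 10 named classes, with 95% exact intervals from counting error. Red arrowheads are bounds against a floor of 3 UMIs where the control had no UMI, and they leave out counting error. Classes with at most 3 UMIs in both groups have no point. Ikzf1 lies at or left of 0, Ikzf2 on both sides, Ikzf4 to the right and Ikzf5 across 0.

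Ikzf2 differed between classes far more than between the groups. Basophil and mast cell-like cells had 574 CPM in the control and 762 CPM in the B-ALL group. These levels were 2.70-fold and 3.35-fold above MPP-like cells (213 and 227 CPM), which came second of the named classes. Unnamed cluster 9 (259 and 248 CPM) had higher values than MPP-like cells in both groups, and unnamed cluster 8 in the control (238 CPM). Monocyte progenitor-like cells had the lowest control level, 35.8 CPM, and with megakaryocyte-like cells (41.0 CPM) the lowest B-ALL levels, 38.7 CPM. HSC-like and early megakaryocyte-erythroid cells, at 183 and 184 CPM, did not stand apart in the control. The range over the classes was 16-fold in the control and 19.7-fold in the B-ALL group. Over all cells Ikzf2 had 7761 and 10262 UMIs, at 115 and 133 CPM, a log2 fold of 0.21 (0.17 to 0.26). With the classes at equal cell numbers it was 0.15.

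Within classes, the Ikzf2 difference went both ways. Its interval lay above 0 in 5 named classes, below 0 in 2 and included 0 in 3. Lymphoid-primed cells had 341 and 557 UMIs, at 96.1 and 159 CPM, a log2 fold of 0.73 (0.53 to 0.93). Erythroid-like cells stood at 68.0 and 107 CPM, a log2 fold of 0.66 (0.48 to 0.83), with 0.70 in cluster 15 and 0.28 (-0.13 to 0.69) in cluster 16. These were the 2 classes past 1.5-fold higher, where 4.37% and 5.12% of genes were. With classes called per cell from marker UMIs both were under 1.5-fold, at 0.49 and 0.27. The basophil and mast cell-like (0.41), neutrophil (0.33) and early granulocyte-monocyte (0.25) progenitor-like classes were also higher, but the neutrophil value was -0.19 with finer clusters and the early granulocyte-monocyte value -0.22 with classes called per cell. Megakaryocyte-like cells were lower by a small margin, with a log2 fold of -0.27 and an interval from -0.53 to just under 0. HSC-like cells had a log2 fold of -0.17 (-0.32 to -0.02), and their clusters did not move together: it was -0.54 in cluster 2, -0.02 in cluster 4 and 0.29 (-0.30 to 0.95) in cluster 3. Cluster 5 (0.35) and cluster 11 (-0.29) of the early megakaryocyte-erythroid class had opposite signs, and their sum gave -0.09 (0.23 with finer clusters). The MPP-like (0.10, or -0.30 with finer clusters) and monocyte progenitor-like (0.11) classes had intervals that include 0.

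Ikzf5 showed no difference beyond counting error. It had 2169 and 2389 UMIs over all cells, at 32.1 and 31.0 CPM, a log2 fold of -0.05 (-0.13 to 0.04). The interval included 0 in 10 of 10 named classes. Ikzf5 levels over these classes ran from 26.7 to 42.1 CPM in the control and from 26.6 to 44.1 CPM in the B-ALL group. This is a range of 1.58-fold and 1.66-fold. No neighbours in the order of classes stood apart in either group. These intervals still allow log2 folds of -0.37 to 0.35 in HSC-like cells and -0.10 to 0.93 in basophil and mast cell-like cells. Within cluster 5, the log2 fold of -0.43 had an interval of -0.85 to -0.01.

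The other members were also counted in cells with and without an Ikzf4 UMI. Among B-ALL HSC-like cells thinned to 3000 UMIs, Ikzf1 was found in 24.1% of 116 Ikzf4-positive and 21.9% of 968 Ikzf4-negative cells. For Ikzf2 the shares were 29.3% and 36.1%, and for Ikzf5 12.9% and 7.64%. The exact intervals of each pair overlapped, which does not show the shares to be equal: for Ikzf5 in Ikzf4-positive cells the interval ran from 7.42 to 20.4.

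Genes whose level followed each member over classes and groups were listed by Pearson's r of log2(CPM + 10) over 28 sums, 14 classes or clusters in each of the 2 groups, among 8885 genes. The sums share their libraries, and r is a description. For Ikzf4 the highest r belonged to Socs2 (0.97), Cish (0.94) and Socs1 (0.91), which encode SH2 domain proteins that damp cytokine receptor signalling. Plxdc2 (0.89) and Pim2 (0.88), a serine/threonine kinase, came next. For Ikzf2 it was Tgfbr2 (0.90), a receptor chain for TGF-beta, followed by Mdga1 (0.89), Slc7a8 (0.88) and Galnt6 (0.87). For Ikzf1 it was Camk1d (0.83), a calmodulin-dependent kinase, then Golm1 (0.80), Slc25a51 (0.79), Plcl2 (0.79) and Il17ra (0.79). For Ikzf5 it was Cnot6 (0.86), a deadenylase of the CCR4-NOT complex, then Diaph1, Trim56, Wac and Bahcc1 (0.83 to 0.82). Among the members themselves r ran from -0.37 (Ikzf1 with Ikzf4) to 0.54 (Ikzf2 with Ikzf5), so no 2 members had the same pattern.

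The partners of the Ikaros proteins differed by less than 1.5-fold over all cells. All 17 listed subunits of NuRD and other corepressors reached a mean of 10 CPM. None was past 1.5-fold over all cells, where 3.94% of genes were higher and 2.79% lower, so the count is near the background. Their median log2 fold was 0.04, beside -0.02 for all genes. Those with the largest folds were Mta3 (-0.44), Mbd2 (-0.32), Sin3a (0.26) and Chd3 (-0.19). In HSC-like cells 1 of the 17 was past 1.5-fold lower, where 4.51% of genes were, so the count is near the background. This was Mta3, a NuRD subunit, at 88.4 and 42.0 CPM with a log2 fold of -1.08 (-1.31 to -0.84). The median there was -0.02, beside -0.01 for all genes. Chd4, the NuRD ATPase, stood at 679 and 707 CPM in HSC-like cells, and Hdac1 and Hdac2, its deacetylases, had log2 folds of -0.02 and 0.00. Thalidomide-like drugs degrade Ikaros and Aiolos through the cereblon ubiquitin ligase. Of its 5 listed genes, none was past 1.5-fold over all cells or in HSC-like cells. The shares of all genes past it were 3.94% higher and 2.79% lower over all cells, and 7.11% and 4.51% in HSC-like cells. The count is near the background in both. All 5 cereblon ligase genes were lower over all cells, with intervals below 0, and in HSC-like cells 1 was higher and 4 were lower. Their median log2 fold was -0.19 over all cells and -0.11 among HSC-like cells, and Crbn itself had 31.4 and 27.2 CPM over all cells.

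Of the lymphoid genes known to need Ikaros, Flt3, Dntt and Satb1 had lower levels in B-ALL HSC-like cells, while several others had too few UMIs there to give a direction. Of 10 listed, 9 were in the matrix and 4 reached the mean of 10 CPM. Over all cells none of the 4 was past 1.5-fold, where 3.94% of genes were higher and 2.79% lower, so this count is near the background. Flt3 at -0.12, Dntt at -0.35 and Satb1 at 0.02 were among them. In HSC-like cells 6 of the listed genes had a UMI in both groups. Without a filter on low levels 5 of them were counted past 1.5-fold lower, where 12.7% of genes were. Both the count and this share include genes with at most 3 UMIs in both groups. Such genes were set to the floor and came out lower only because the control sum was smaller. Rag2, with 3 and 1 UMIs, was counted in this way and gives no fold. Vpreb1, which was not lower, had 3.05 and 3.26 CPM. Il7r (0 and 4 UMIs), Igll1 (0 and 1) and Ccr9 (0 in both groups) give no direction. With the filter, 4 genes were counted and all 4 were past 1.5-fold lower, where 4.51% of genes were, but Dntt reached the mean of 10 CPM only through the control group. Dntt, the terminal transferase of antigen receptor joining, had 22.1 and 4.31 CPM, a log2 fold of -2.36 (-2.97 to -1.76). Flt3, a cytokine receptor of early lymphoid progenitors, had 53.0 and 26.5 CPM, with an interval of the log2 fold from -1.30 to -0.69, and Satb1, a chromatin organizer, had 36.6 and 21.5 CPM (-0.77). Dntt, Flt3 and Satb1 are also among the markers that named the lymphoid-primed class, and the split of HSC-like cells over their clusters differed between the groups.

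Of 9 listed Notch pathway genes that Ikaros is known to hold down, 6 were in the matrix. Notch1, the receptor, was the 1 that reached the mean over all cells, with a log2 fold of 0.25. In HSC-like cells Hes1, a transcriptional repressor induced by Notch and other signals, had 2 control and 183 B-ALL UMIs, a ratio of 25.2 (6.89 to 210.0). Hes1 reached the mean of 10 CPM there only through the B-ALL group, at 0.762 and 19.2 CPM. Notch1 had a log2 fold of 0.39 (0.01 to 0.80) in these cells. Hes5 (10.3 and 7.04 CPM) and Nrarp (7.24 and 9.88 CPM) had intervals that include 0 in HSC-like cells, so a difference in them was not detectable at this depth. Over all cells both missed the mean of 10 CPM and were higher in the B-ALL group. Nrarp had 153 and 448 UMIs and a log2 fold of 1.36 (1.09 to 1.64), and Hes5 had 222 and 328 UMIs and 0.37 (0.12 to 0.63). Of the 6 listed genes, 5 were higher over all cells and 1 was lower. The lower gene was Ptcra, also below that mean, with 58 and 29 UMIs and a log2 fold of -1.19 (-1.88 to -0.52). Of the antigens used in the sort, Kit had a log2 fold of -0.84 over all cells and -1.07 among HSC-like cells, and Ptprc, which encodes CD45, had 0.25 and 0.24.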

How the data were processed

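Single-cell RNA libraries of sorted mouse bone marrow cells were made with the 10x Chromium 3' kit, per the labels. The submitters' processing notes name Cell Ranger 4, Seurat 4.0.1 and the mm10 assembly. The authors' deposited values are raw UMI counts in a gene by cell matrix, whose sums matched the authors' cell totals in 100% of cells. The authors' deposited cell table also gives UMAP coordinates, used as scores without a unit, and a group prefix (pbs or tm, the latter taken to mean the tumor environment). How cells and genes were filtered is not given in the sources used here. The planned replicate tests could not be run, since the cells name no sample.

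The members and gene lists were chosen with earlier results of these data known. Cells were clustered on the authors' map (scanpy 1.11.5, igraph 0.11.9, Leiden, 30 neighbours, resolution 0.3) and named from marker lists when the mean log2 enrichment reached 0.5 and 3 or more markers were detected, unless the 10 leading genes held more markers of another list or, at low depth, none of its own. Classes with at least 30 cells in each group were compared. Within each class and group, UMIs were added up and scaled with TMM (edgeR 4.0.16). Folds have exact conditional 95% intervals, shares exact Clopper-Pearson intervals, and levels Poisson intervals. A fold against 0 UMIs was set against a floor of 3 UMIs per group sum, and none was given where both groups had at most 3. These values, written as at least or as bounds, leave out counting error. Genes entered the counts with a mean of at least 10 CPM. The calculation of folds was tested on simulated data. Scrublet called 6 control and 3 B-ALL cells doublets, which is too few for the caller to have worked, and all cells were kept. The rule for named genes took all members, up to 4 genes per pathway list by size of fold (over all cells and again in the HSC-like class), the 5 genes with the highest r per member, Kit and Ptprc. Some genes that this rule selects are not reported here, though the counts of their lists include them. Chd4, Hdac1, Hdac2, Crbn, Hes5, Nrarp, Ptcra, Rag2, Vpreb1, Il7r, Igll1, Ccr9, the marker genes and the neighbours of Ikzf4 were named after their values were seen. Alternatives were DESeq2 1.42.0 size factors, UMI totals, leaving out sets of cells or genes, other classes, other thinning and no filter.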

Additional observations from a re-analysis of the deposited data

Results flagged for a closer look

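Ikzf2 had a log2 fold of 0.73 (0.53 to 0.93) in lymphoid-primed cells and of -0.27 (-0.53 to just under 0) in megakaryocyte-like cells, so the B-ALL group was higher in the former and lower in the latter. The pair was picked out because these classes moved in opposite directions under the same contrast. With 1 sample per group, the difference between the classes was not tested.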

How the results depend on the processing

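The folds of the members were recomputed under 12 alternatives, 2 of them chosen after the data were seen (leaving out cells with a Trbc2 or Vpreb1 UMI, and cells whose barcode occurs in both groups). Of 449 values, 431 lay within the main counting interval and 18 outside it. The Ikzf4 log2 fold in HSC-like cells ran from 4.19 (mean of each cell's CPM) to 4.68 (without the highest 5% of Scrublet scores). With equal cells of every class, the log2 folds over all cells were -0.38 for Ikzf1, 0.15 for Ikzf2 and 4.54 for Ikzf4. Some Ikzf2 signs turned with the class borders: with classes called per cell from marker UMIs, the early granulocyte-monocyte value was -0.22, and with finer clusters the MPP-like value was -0.30, the neutrophil value -0.19 and the early megakaryocyte-erythroid value 0.23. Ikzf5 signs, whose intervals include 0, turned in several classes. The lower bound for Ikzf4 in early granulocyte-monocyte cells, 1.72 on the log2 scale, was -0.54 with classes called per cell and then gives no direction. It was counted as a moved value and not as a turned sign, a choice made after its value was seen. The share of B-ALL HSC-like cells with an Ikzf4 UMI was 16.2% at 5000 UMIs and 26.0% without thinning, against 10.7% at 3000. Without the filter on low levels, 2 lymphoid genes were past 1.5-fold higher and 2 lower over all cells, against 0 and 0, where 12.5% and 8.08% of genes were. Of the Notch genes, 3 were then higher and 1 lower over all cells, against 0 and 0, and 2 were higher in HSC-like cells, against 1, where 12.5% of genes were. With 1 CPM added in place of 10, Socs2 and Cish still had the highest r with Ikzf4 (0.95 and 0.91). No paired analysis was possible because the cells do not name their sample, and leaving out each replicate in turn was not run for the same reason. Depth limits the control values of Ikzf4, which rest on 15 UMIs.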
